A study of Homo sapiens with 6 samples.

Results

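The EGF receptor family was examined here through 10 genes, which are the receptors EGFR, ERBB2, ERBB3 and ERBB4, the ligands EREG, AREG, HBEGF, TGFA and BTC, and the receptor inhibitor ERRFI1. They were chosen by gene symbol, and all 10 were found among the 24462 different symbols of the count files. The libraries came from 1CT, a line of immortalized colon epithelial cells of human origin without further change (3 libraries), and from 1CT-A, its derivative in which wild type APC was depleted and which the labels call APC KD (3 libraries). All cells were untreated and grown in DMEM and M199 with 20 ng/mL EGF, 1 μg/mL hydrocortisone, 10 μg/mL insulin, 5 nM sodium selenite, 2 μg/mL transferrin and 2% FBS, so the receptors met added EGF in both cell lines. Whether 1CT-A was a single clone, and whether the 3 libraries of a cell line came from separate cultures, is not given in the sources used here, so p values measure the spread between these libraries, which may be technical.

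Ligands of this family are made as membrane proteins and are cut from the cell surface by ADAM proteases. A released ligand binds EGFR or ERBB4 (neuregulins bind ERBB3 or ERBB4), the receptors pair, and the receptor dimer then signals through RAS and ERK and through PI3 kinase. ERBB2 binds no ligand and acts as the partner of the others, and ERBB3 has very weak kinase activity and also needs a partner. In the gut these ligands act on the cells that make them and on their neighbours, and EREG and AREG in particular are studied in colorectal cancer as markers of tumours that depend on EGFR.

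Between 7788679 and 8452258 reads were counted in the 1CT libraries and between 11158108 and 12602988 in the 1CT-A libraries. Levels are given as CPM, the counts of a gene scaled to a common library size by the total of its file, and 3 counts, taken as the smallest visible level, corresponded to 0.355 to 0.385 CPM for 1CT and 0.238 to 0.269 CPM for 1CT-A. APC, the depleted gene, had means of 46.6 ± 2.75 CPM for 1CT and 31.9 ± 2.21 CPM for 1CT-A (SD, n = 3 each), and its log2 fold change was -0.58 (edgeR adjusted p = 1.8e-04). Markers of colon epithelium were nearly missing, although the labels name colonic epithelial cells. Of 10 such markers, EPCAM, VIL1 and CDX1 had no count in any library, and KRT20, CDX2 and LGALS4 had at most 3 counts. KRT18 alone had more than 3 counts in every library. KRT19 differed between the cell lines, at 2.4, 3.3 and 4.4 CPM in 1CT and without a count in 1CT-A. CDH1 reached at most 0.473 CPM and KRT8 at most 1.80 CPM, both in 1CT. The summed level of the 10 markers ran from 13.4 to 17.6 CPM for 1CT and from 3.23 to 7.20 CPM for 1CT-A. All 8 mesenchyme markers, among them VIM and COL1A1, had more than 3 counts in every library, and their summed level was 4664 to 5656 CPM for 1CT and 4301 to 4605 CPM for 1CT-A. The sum was mostly VIM, COL1A1 and COL1A2, and its members did not move together, as COL3A1 was at 31.5 to 66.8 CPM in 1CT and at 239.6 to 269 CPM in 1CT-A, while THY1 was at 267 to 337 CPM and at 162 to 173 CPM. The part of these differences in the values of the EGF receptor family was not tested. In these bulk libraries, fewer cells that express a gene and less RNA of it per cell cannot be told apart.

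The ligands EREG, AREG and HBEGF carried the largest differences of the family, and the promoters of these 3 genes are shown so that the neighbouring EREG and AREG can be read against each other. EREG and AREG lie side by side on the plus strand of chromosome 4. In GENCODE release 44 on GRCh38, EREG runs from 74365145 to 74388749 and AREG from 74445136 to 74455005, with 56.4 kb between them. HBEGF lies on the minus strand of chromosome 5 from 140332843 to 140346603. Each window holds 250 bases before and 50 bases after the RefSeq gene start on GRCh38.p14, 5′ to 3′ on the strand of the gene, and capitals mark the motif matches described next. The windows are chr4:74364895-74365194 for EREG, chr4:74444886-74445185 for AREG and chr5:140346554-140346853 for HBEGF.
EREG: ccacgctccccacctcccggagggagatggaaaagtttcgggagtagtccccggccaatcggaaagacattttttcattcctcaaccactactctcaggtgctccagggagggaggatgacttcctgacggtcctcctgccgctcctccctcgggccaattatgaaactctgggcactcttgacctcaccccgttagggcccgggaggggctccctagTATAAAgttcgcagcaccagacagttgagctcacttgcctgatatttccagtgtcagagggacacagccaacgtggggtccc
AREG: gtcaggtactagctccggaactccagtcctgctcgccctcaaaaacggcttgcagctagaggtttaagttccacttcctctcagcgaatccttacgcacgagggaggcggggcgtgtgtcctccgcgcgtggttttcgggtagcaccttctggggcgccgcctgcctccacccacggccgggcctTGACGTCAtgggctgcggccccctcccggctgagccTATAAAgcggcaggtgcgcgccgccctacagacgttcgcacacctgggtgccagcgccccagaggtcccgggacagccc
HBEGF: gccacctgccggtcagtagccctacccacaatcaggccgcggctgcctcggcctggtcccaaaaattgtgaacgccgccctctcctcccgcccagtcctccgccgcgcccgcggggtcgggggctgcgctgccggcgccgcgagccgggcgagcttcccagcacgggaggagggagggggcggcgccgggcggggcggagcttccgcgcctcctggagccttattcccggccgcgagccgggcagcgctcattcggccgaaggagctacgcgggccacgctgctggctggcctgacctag

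The windows were searched on both strands for the cAMP response element TGACGTCA, the AP-1 site TGANTCA, the TCF/LEF site CTTTGAT and the TATA box TATAAA. These letters do not overlap with one another in the matches found. AREG held the cAMP response element, with its first base 65 bases before the gene start, and the TATA box 29 bases before it. EREG held only the TATA box, 32 bases before its start, and HBEGF held none of the 4 motifs. Windows of the other members, all but ERBB3, were searched as well. An EGFR window starting at 55109589 held the AP-1 site and the TATA box, and the ERBB2 window held the AP-1 site. The EGFR window starting at 55018767 and those of the remaining members held none. Among the 35116 RefSeq promoters of the same length, 1.85% held the cAMP response element, 7.71% the AP-1 site, 2.62% the TCF/LEF site and 11.5% the TATA box. A match is a description of these letters and not evidence of binding. GC content was 57.7% in the EREG window, 66.3% in the AREG window and 75.0% in the HBEGF window.

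The receptor genes were read first. EGFR, the receptor of EGF and of all 5 ligands studied here, was lower in 1CT-A, and ERBB2 was not called. EGFR stood at 22.7, 22.8 and 25.7 CPM in the 1CT libraries and at 17.3, 16.4 and 17.3 CPM in the 1CT-A libraries, from 187 to 218 counts per library. Every 1CT-A library was below every 1CT library. The means were 23.7 ± 1.68 CPM and 17.0 ± 0.510 CPM (SD, n = 3 each). In the TMM-normalized edgeR fit EGFR was 1.43-fold lower in 1CT-A, a log2 fold change of -0.52 (standard error 0.11, 95% interval -0.76 to -0.28, edgeR adjusted p = 0.00165). Of the 12514 genes tested, 64.6% had a smaller absolute log2 fold change than EGFR, so its difference was moderate among them. EGFR lies on chromosome 7 from 55019017 to 55211628 (GRCh38), and its antisense gene EGFR-AS1 had no count in any library.

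ERBB2, the receptor without a ligand of its own, was at 19.4, 20.9 and 21.3 CPM in 1CT and at 22.9, 20.3 and 20.1 CPM in 1CT-A, and the cell lines overlapped. Its log2 fold change was -0.0018 (standard error 0.11, edgeR adjusted p = 0.991), with a 95% interval of -0.24 to 0.24 and a sign that turned with the scaling. The last exon of ERBB2, on chromosome 17 from 39727689 to 39728658 (GRCh38), overlaps the end of MIEN1 on the opposite strand. QuantSeq reads come from the ends of transcripts, and use of the strand in counting is not given in the sources used here, so reads of the 2 genes could have been exchanged. MIEN1 was at 23.2 ± 5.28 CPM in 1CT and 18.4 ± 1.19 CPM in 1CT-A (SD, n = 3 each), with a log2 fold change of -0.37 (edgeR adjusted p = 0.0518).

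Within each library the counts of EGFR were set against those of ERBB2, a ratio that does not depend on the scaling. There were 1.17, 1.09 and 1.20 EGFR counts per ERBB2 count in the 1CT libraries and 0.757, 0.810 and 0.862 in the 1CT-A libraries. The order of the pair in counts therefore turned, with EGFR ahead in all 1CT libraries and ERBB2 ahead in all 1CT-A libraries. Some gaps were small, such as 189 EGFR against 173 ERBB2 counts in 1CT replicate 2, and counting error of the ratio was not assessed. Reads exchanged with MIEN1 would also alter the ratio. ERBB3 had 0 counts in all 6 libraries, which allows a level of up to 0.385 CPM in the shallowest of them. ERBB4 had 0 counts in 1CT and 2, 2 and 1 counts in 1CT-A, all under the 3 counts taken as visible, so no relative level is given. With ERBB3 and ERBB4 at or under the limit, the receptor counts were those of EGFR and ERBB2. An entry at 0 throughout was not rare, as 21.6% of all symbols had no count in any library.

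**Figure D1:**
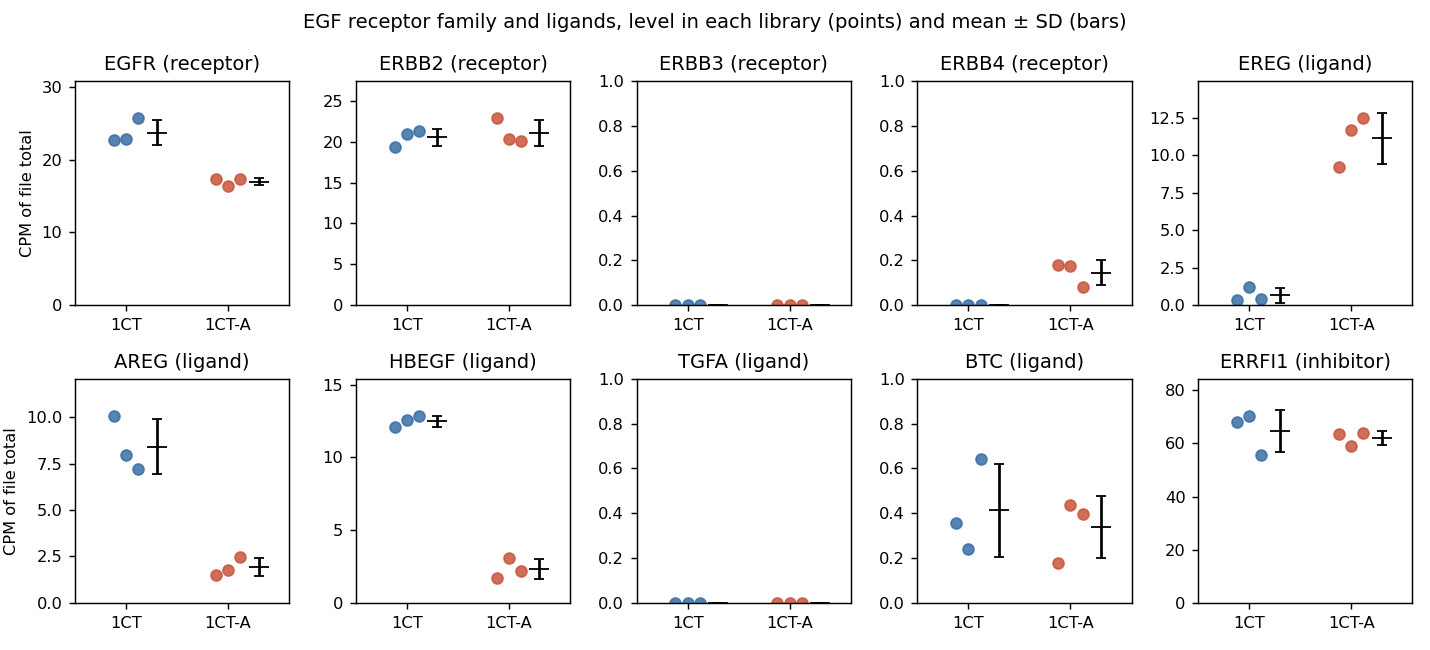
Level of each of the 10 genes in the 6 libraries, in CPM of the file total, with a separate linear axis for each gene; points are libraries, and the bars beside them are the mean and SD of 3 libraries of 1CT (blue) or 1CT-A (red). EREG was at most 1.21 CPM in 1CT and at least 9.23 CPM in 1CT-A, AREG and HBEGF moved the opposite way, and ERBB3 and TGFA had no counts.

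Among the ligands EREG rose while AREG and HBEGF fell. EREG encodes epiregulin, a ligand of EGFR and ERBB4. It had 3, 10 and 3 counts in the 1CT libraries (0.355, 1.21 and 0.385 CPM) and 103, 133 and 157 counts in those of 1CT-A (9.23, 11.7 and 12.5 CPM). All 1CT-A libraries were above all 1CT libraries, of which 2 lay at the limit of 3 counts. The means were 0.649 ± 0.484 CPM and 11.1 ± 1.68 CPM (SD, n = 3 each), and the log2 fold change was 4.03 (standard error 0.32, 95% interval 3.36 to 4.75, edgeR adjusted p = 4.5e-07). The summed counts of each cell line, divided by its summed library totals, gave a ratio of 17.1 between 1CT-A and 1CT, with an exact 95% interval of 10.4 to 30.3 that covers counting error only. EREG passed the filter on low counts through the 1CT-A libraries alone, so a difference was a condition of its being tested. The size of the change also depended on 1CT replicate 2, without which the log2 fold change was 4.83.

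AREG encodes amphiregulin, a ligand of EGFR. Its levels were 10.1, 7.97 and 7.19 CPM in 1CT (85, 66 and 56 counts) and 1.52, 1.76 and 2.46 CPM in 1CT-A (17, 20 and 31 counts), and the cell lines did not overlap. The means were 8.41 ± 1.48 CPM and 1.91 ± 0.488 CPM (SD, n = 3 each), and in the edgeR fit AREG was 4.46-fold lower in 1CT-A, a log2 fold change of -2.16 (standard error 0.24, 95% interval -2.68 to -1.65, edgeR adjusted p = 8.2e-06). The submitters' processing notes name the build hg19, in which AREG has a near-identical copy known as AREGB. The files list no AREGB, and RefSeq on GRCh38 gives AREGB as another name of AREG. How reads that match both copies were counted is not given in the sources used here, so the level of AREG is uncertain.

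HBEGF encodes a ligand of EGFR and ERBB4 that binds heparin. HBEGF was the most even of the ligands in 1CT, at 12.1, 12.6 and 12.8 CPM (102, 104 and 100 counts), and stood at 1.70, 3.07 and 2.22 CPM in 1CT-A (19, 35 and 28 counts). No 1CT-A library came near a 1CT library. The means were 12.5 ± 0.390 CPM and 2.33 ± 0.691 CPM (SD, n = 3 each), and in the edgeR fit the gene was 5.48-fold lower, a log2 fold change of -2.45 (standard error 0.20, 95% interval -2.90 to -2.02, edgeR adjusted p = 6.6e-07). BTC, which encodes betacellulin, a ligand of EGFR and ERBB4, had 3, 2 and 5 counts in 1CT and 2, 5 and 5 counts in 1CT-A, too few for the test. The ratio of its summed CPM was 0.837, with an exact 95% counting interval of 0.331 to 2.16, so a difference within these bounds was not detectable at this depth. TGFA, the gene of transforming growth factor alpha, had no count in any library.

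The make-up of the ligand counts was compared by taking each ligand's share of the 5 ligands in a library. Between 141 and 221 counts fell on the ligands in a library. HBEGF and AREG made up nearly all of them in 1CT, with shares of 52.8%, 57.1% and 61.0% for HBEGF and of 44.0%, 36.3% and 34.1% for AREG. EREG held 1.55%, 5.49% and 1.83% in 1CT, and 73.0%, 68.9% and 71.0% in 1CT-A. The lowest Wilson 95% bound of EREG in 1CT-A was 62.1%, and its highest bound in 1CT was 9.82%, both for counting error only. The summed level of the 5 ligands was 22.0 ± 0.889 CPM in 1CT and 15.7 ± 2.67 CPM in 1CT-A (SD, n = 3 each), so the sum differed far less than its parts. Per AREG count there were 0.0353, 0.152 and 0.0536 EREG counts in the 1CT libraries and 6.06, 6.65 and 5.06 in the 1CT-A libraries.

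**Figure D2:**
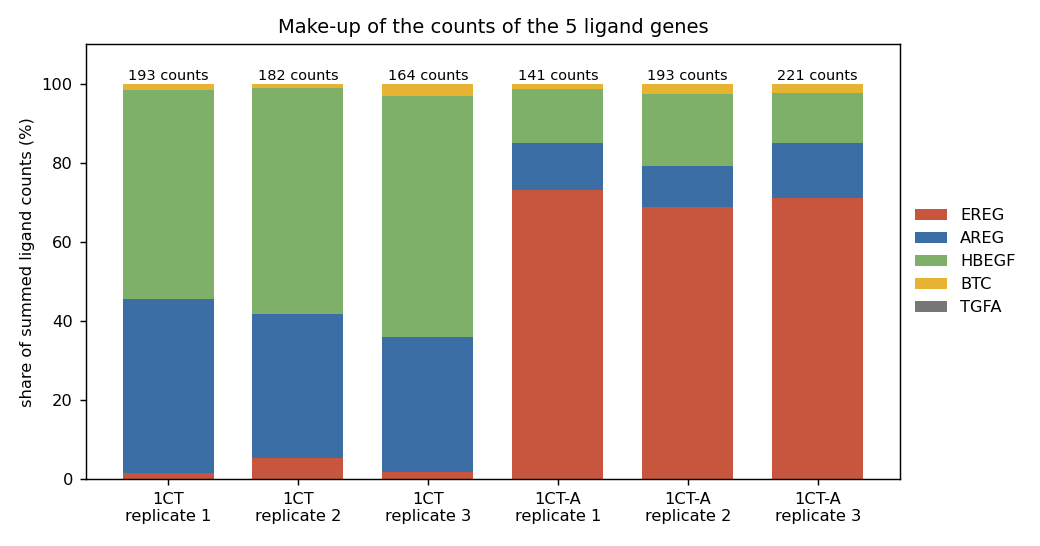
Share of EREG, AREG, HBEGF, BTC and TGFA in the summed counts of the 5 ligands (vertical axis, %), for each of the 6 libraries, with the summed counts printed above each bar. The largest segment was HBEGF in the 1CT libraries (52.8% to 61.0%) and EREG in the 1CT-A libraries (68.9% to 73.0%), and TGFA had no counts.

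ERRFI1 encodes MIG6, which binds the kinase domain of EGFR and its relatives, blocks it and promotes removal of the receptor, and which is itself induced by EGFR signalling. It was the member with the most counts in both cell lines. Its levels were 67.9, 70.3 and 55.5 CPM in 1CT and 63.4, 58.9 and 63.8 CPM in 1CT-A, and the cell lines overlapped. The log2 fold change was -0.10 (standard error 0.09, edgeR adjusted p = 0.418). Its 95% interval of -0.30 to 0.11 leaves room for a small change in either direction.

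Across the family, 6 of the 10 genes had enough counts to be tested, and BTC, ERBB3, ERBB4 and TGFA did not. EREG was called higher at an edgeR adjusted p under 0.05, AREG, HBEGF and EGFR were called lower, and ERBB2 and ERRFI1 were not called. Of all 12514 genes tested, 51% were called, 25% higher and 26% lower, so a call by itself did not set a member apart. At a fold of at least 2 and an unadjusted edgeR p under 0.01, the thresholds of the study, EREG, AREG and HBEGF were called, beside 13.4% of all genes tested (3.8% higher and 9.6% lower). By the size of a rise EREG ranked 16 among the 12514 genes, and by the size of a fall HBEGF ranked 372 and AREG ranked 449. EREG entered the test through the 1CT-A libraries alone, with 16 summed counts in 1CT, so its call and rank are conditional on its difference. The cell lines did not overlap for EGFR, EREG, AREG and HBEGF, as for 59.1% of all genes tested, and an exact two-sided permutation test of each gave p = 0.1, the smallest that 3 libraries against 3 allow.

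**Figure D3:**
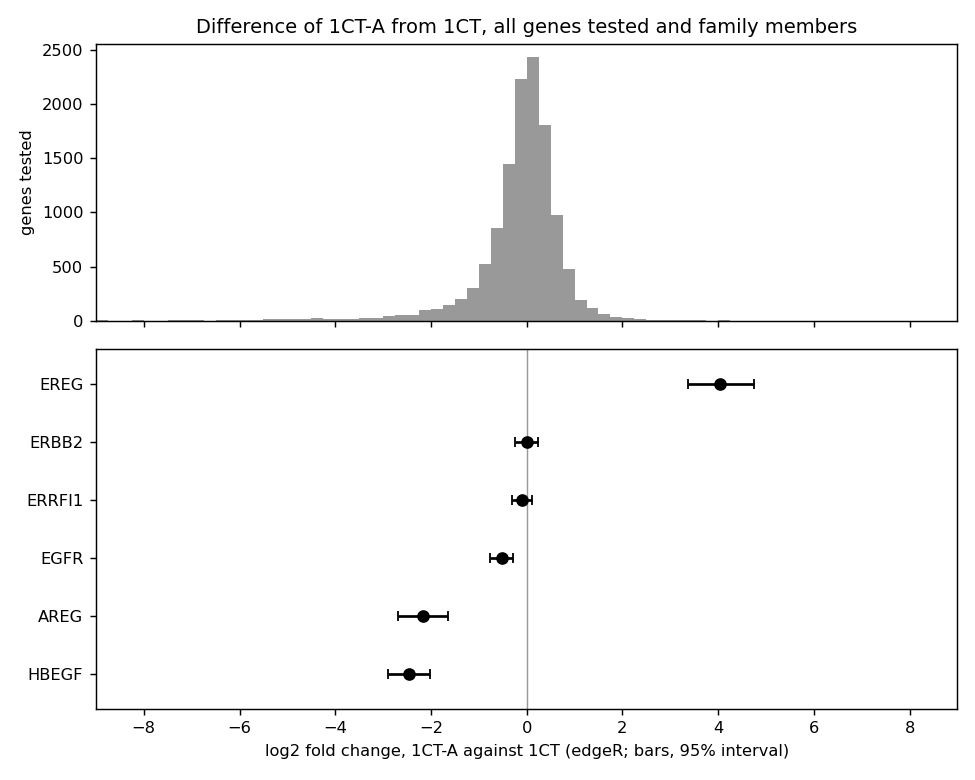
Upper panel, number of genes (vertical axis) by log2 fold change (1CT-A against 1CT) for the 12514 genes tested; lower panel, the 6 tested members on the same horizontal axis, with 95% intervals from edgeR. EREG (4.03) lay in the right tail, HBEGF (-2.45) and AREG (-2.16) in the left tail, and the intervals of ERBB2 and ERRFI1 included 0.

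The order of levels within a cell line followed from these changes. QuantSeq counts reads at the end of a transcript, so its counts were not divided by gene length, and the order still depends on how well each end was primed and annotated. In 1CT the order in CPM was ERRFI1, EGFR, ERBB2, HBEGF, AREG, EREG and BTC, and only EREG and BTC had overlapping ranges among neighbours above 0. In 1CT-A it was ERRFI1, ERBB2, EGFR, EREG, HBEGF, AREG and BTC, and there the ranges of HBEGF and AREG overlapped. EREG thus moved from below AREG to directly after the receptors.

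The neighbours of the chromosome 4 ligands were listed within 500000 bases of the stretch from EREG to BTC, a window chosen after the values of the members were known. EPGN, the gene of a further ligand, epigen, lies 48.4 kb before EREG and had at most 3 counts in any library. Apart from the members, 5 protein-coding neighbours were tested, of which 4 were higher and 1 was lower in 1CT-A, where 25% of all genes tested were higher and 26% lower. The 4 that rose were the chemokine genes CXCL1, CXCL2, CXCL3 and CXCL5, whose products attract neutrophils, and the largest rise was that of CXCL3 (log2 fold change 3.19, standard error 0.18, edgeR adjusted p = 2.1e-08), from 1.83 ± 0.163 CPM to 17.3 ± 1.56 CPM (SD, n = 3 each). PARM1, on the far side of BTC, was the 1 that fell (log2 fold change -2.51, standard error 0.68, edgeR adjusted p = 0.00687), with 14, 34 and 8 counts in 1CT and 1, 11 and 2 counts in 1CT-A. PF4, a further chemokine gene of this stretch, was not tested. Its counts were 30, 16 and 6 in 1CT and 1, 0 and 3 in 1CT-A, opposite in direction to the 4 that rose. PARM1 passed the filter on low counts through the 1CT libraries alone, so for PARM1 a difference was a condition of being tested. CXCL2 was over the cut of the filter, 1.02 CPM, in 3 libraries of 1CT-A and in 2 of 1CT. Its 1CT mean of 1.06 CPM lay near that cut.

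Ligand release was read from 12 genes of shedding and ligand transport, of which 11 were tested. In this list 5 genes were lower, 1 was higher and 5 were not called, and the median log2 fold change was -0.37, beside -0.01 over all genes tested. The share called was 54.5%, close to the 51% of all genes tested. The largest falls were those of ADAM12, a protease that can cut HBEGF, and of RHBDF1 and RHBDF2, which encode the inactive rhomboid proteins that carry ADAM17 to the cell surface. ADAM12 went from 54.3 ± 3.92 CPM to 20.6 ± 0.587 CPM (SD, n = 3 each; log2 fold change -1.44, standard error 0.09, edgeR adjusted p = 8.3e-08). RHBDF1 was at 27.0, 36.7 and 31.5 CPM in 1CT and had a mean of 13.3 ± 0.833 CPM in 1CT-A (SD, n = 3; log2 fold change -1.29, edgeR adjusted p = 3.1e-06). For RHBDF2 the log2 fold change was -1.05 (standard error 0.14, edgeR adjusted p = 3.3e-05). ADAM17 itself, the main protease for AREG, EREG and HBEGF, is named outside the rule for gene names. It was not called (log2 fold change 0.11, standard error 0.12, edgeR adjusted p = 0.468). The 1 higher gene of the list was ADAM10, also named outside the rule and after its values were seen. ADAM10 went from 39.6 ± 7.19 CPM to 63.1 ± 1.86 CPM (SD, n = 3 each; log2 fold change 0.63, standard error 0.11, edgeR adjusted p = 3.8e-04).

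Genes that act directly on the receptors were read next, beside the 51% of all genes tested that were called. Of 17 adaptors and proximal effectors, 2 were higher, 4 were lower and 11 were not called, with a median log2 fold change of -0.24. The share called was 35.3%. GAB2 (-0.94, standard error 0.12, edgeR adjusted p = 2.8e-05) and SHC1 (-0.88, standard error 0.07, edgeR adjusted p = 6.7e-07), both adaptors that link activated receptors to RAS and PI3 kinase signalling, fell. NCK1, an adaptor to the actin cytoskeleton, rose (0.49, standard error 0.14, edgeR adjusted p = 0.0111). SHC1 was at 229 ± 14.0 CPM in 1CT and 129 ± 2.03 CPM in 1CT-A (SD, n = 3 each). Of 21 tested genes of receptor endocytosis and turnover, 3 were higher, 3 were lower and 15 were not called, with a median of -0.03. The share called was 28.6%. The 3 higher genes, named outside the rule, were LRIG3 (1.71, below 10 CPM and described further below), RNF126 (0.30) and USP8 (0.24). SH3KBP1, which encodes the CBL partner CIN85 in the uptake of EGFR, fell by 0.76 on the log2 scale (edgeR adjusted p = 1.6e-06), RNF41, a ubiquitin ligase for ERBB3, fell by 0.74 (edgeR adjusted p = 1.0e-04), and EPS15L1, an endocytic adaptor, fell by 0.47 (edgeR adjusted p = 0.00683).

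Downstream of the receptors, 12 genes of the RAS-ERK cascade were tested, of which 1 was higher, 2 were lower and 9 were not called, with a median log2 fold change of 0.03. The share called was 25%, beside 51% of all genes tested (25% higher and 26% lower). MAPK3, the gene of ERK1, fell from 118 ± 11.96 CPM to 70.7 ± 1.80 CPM (SD, n = 3 each; log2 fold change -0.78, edgeR adjusted p = 1.0e-05). MAP2K2, the gene of the kinase MEK2, also fell (-0.55, edgeR adjusted p = 9.9e-05), and NRAS rose (0.69, standard error 0.13, edgeR adjusted p = 7.6e-04). Among 15 genes that ERK signalling is known to induce, many of them feedback inhibitors, 5 were higher, 4 were lower and 6 were not called, with a median of -0.04. In this list 60% were called, beside the same 51% of all genes tested. DUSP5, a phosphatase of nuclear ERK, fell from 118 ± 7.36 CPM to 60.2 ± 2.72 CPM (SD, n = 3 each; log2 fold change -1.0, edgeR adjusted p = 4.3e-07). PHLDA1 rose from 493 ± 30.4 CPM to 847 ± 7.96 CPM (SD, n = 3 each; log2 fold change 0.74, edgeR adjusted p = 9.1e-07). SPRY2, a sprouty inhibitor of receptor signalling, was higher by 0.43 (standard error 0.14, edgeR adjusted p = 0.0207). The list therefore moved in both directions around a median close to that of all genes tested.

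**Figure D4:**
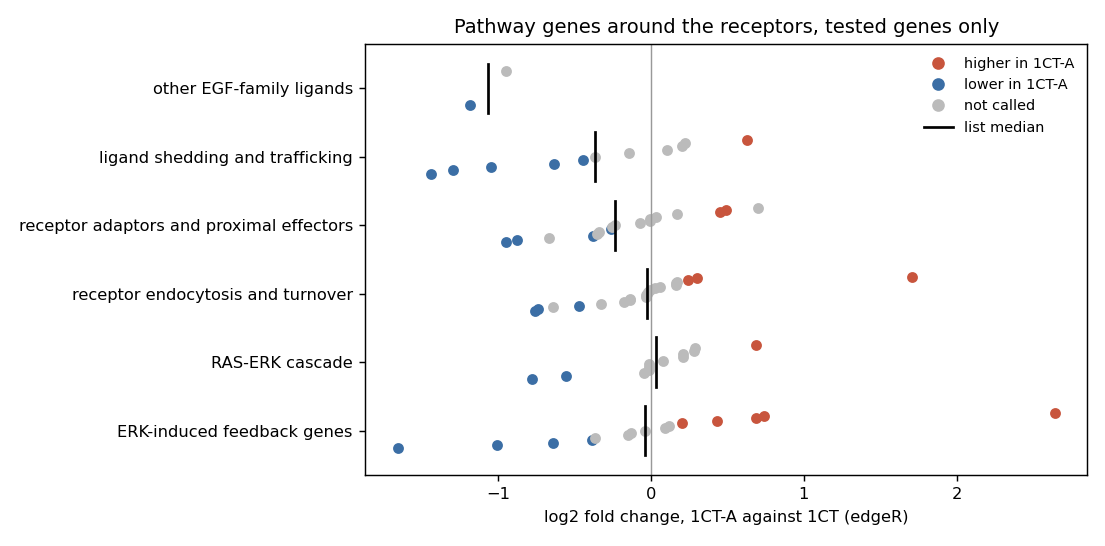
Log2 fold change (horizontal axis, 1CT-A against 1CT) for every tested gene of 6 lists around the receptors; points are genes, red where higher, blue where lower and grey where not called at an edgeR adjusted p under 0.05, and black lines are list medians. Calls lay on both sides of 0 in 5 of the 6 lists, and the median of ligand shedding and trafficking was -0.37.

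The other EGF-family ligands were close to the limit of detection. Of EGF, EPGN, NRG1, NRG2, NRG3 and NRG4, only NRG1 and NRG4, which encode neuregulins, were tested. NRG1 had 26, 11 and 13 counts in 1CT and 12, 6 and 20 counts in 1CT-A and was not called (log2 fold change -0.95, standard error 0.44, edgeR adjusted p = 0.0832). NRG4, named after its values were seen, had 25, 19 and 15 counts in 1CT and 9, 16 and 13 counts in 1CT-A. It was lower in 1CT-A (log2 fold change -1.18, standard error 0.33, edgeR adjusted p = 0.00897). NRG1 and NRG4 were each over the filter's cut of 1.02 CPM in 3 libraries of 1CT and 2 of 1CT-A. Their 1CT-A means, 1.06 and 1.08 CPM, lay near that cut. The EGF gene had at most 4 counts in any library, in cells whose medium held EGF.

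Genes with a pattern most like that of EREG and of EGFR were taken by Pearson's r over the 6 libraries. It used log2 of TMM-normalized CPM plus 0.5, among genes with a TMM-normalized mean of at least 10 CPM. For EREG the closest genes were MYO19, HK2, FENDRR, THAP11 and PSAT1, with r from 0.9989 to 0.9996. For EGFR they were ITPRIPL2, MFGE8, LOC100132352, UNC119 and PAPPA-AS1, with r from 0.9974 to 0.9979. The libraries form 2 groups, so these values mainly follow the difference between the cell lines and are given as a description.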

How the data were processed

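Raw counts per gene symbol were deposited by the authors, 1 file per library, without normalization or pooling. Per the labels, 500 ng of total RNA went into each QuantSeq 3′ library, and the submitters' processing notes name Bowtie2, edgeR and hg19 without versions or roles. The counting tool, annotation and strand setting are not given in the sources used here. Repeated symbols (286 of 24462, no member among them) were summed. Counts were fitted with edgeR 4.0.16 in R 4.3.3 (filterByExpr with a minimum count of 10, TMM, quasi-likelihood test between the cell lines, Benjamini-Hochberg adjustment over 12514 genes, calls at an adjusted p under 0.05), after a test on simulated data. The study's methods name a per-gene two-tailed test, and only its thresholds were used. The Wilson intervals of shares, the exact intervals of ratios of summed counts and the floor of 3 counts cover counting error only. Intervals of fold changes come from the edgeR fit and also carry the spread between libraries. Positions and sequences are on GRCh38 (GENCODE release 44, RefSeq), while the notes name hg19 for the counts. RefSeq promoters were matched for 9 of the 10 members, all but ERBB3. Alternatives used DESeq2 1.42.0 and limma 3.58.1, among others. Named genes are all members, APC and the genes most like EREG and EGFR. Per list, up to 3 called genes with the largest change and a TMM-normalized mean of at least 10 CPM are also named. Members and lists were chosen with earlier results of these data known.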

Additional observations from a re-analysis of the deposited data

How the results depend on the processing

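EGFR, EREG, AREG, HBEGF and ERRFI1 kept their direction and their side of the threshold in all 74 values from the alternatives. These were other scalings, no filter or at least 10 counts in every library (where EREG is not tested), DESeq2, limma-voom, a replicate block, the first entry of repeated symbols, and each library left out. With 1 library left out, the log2 fold changes ran from -0.55 to -0.44 for EGFR, 3.73 to 4.83 for EREG, -2.38 to -2.01 for AREG, -2.68 to -2.28 for HBEGF and -0.18 to -0.03 for ERRFI1. ERBB2 lay so close to 0 that its sign turned, to 0.036 with library size only and 0.044 without a filter, and it ran from -0.065 to 0.041 with 1 library left out, never called. The thresholds of the study (fold of at least 2, unadjusted p under 0.01) gave 1676 genes in place of 6388, 3 members in place of 4 and 8 genes of the pathway lists in place of 31. With 1 library left out, 5364 to 6551 genes and 27 to 32 list genes were called. The deviations of same-numbered libraries had correlations of -0.16, 0.22 and -0.14, within the range of -0.29 to 0.34 for the other pairs. With 3 libraries per cell line, these values cannot show whether the numbers mark pairs. The replicate block gave 6091 genes and 4 members, with -0.52 for EGFR, 4.04 for EREG, -2.16 for AREG and -2.47 for HBEGF. Adding AREGB to AREG was not run, since the files list no AREGB. Depth limits BTC, ERBB3, ERBB4 and TGFA most.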

Other observations

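Several pathway genes below 10 CPM also differed, and they are named here after their values were seen. SPRY1, a sprouty inhibitor of receptor signalling, rose from 0.890 ± 0.273 CPM in 1CT to 5.81 ± 0.452 CPM in 1CT-A (SD, n = 3 each; log2 fold change 2.64, standard error 0.28, edgeR adjusted p = 5.4e-06). SPRED3, of the related SPRED inhibitors, fell from 5.27 ± 0.477 CPM to 1.72 ± 0.404 CPM (log2 fold change -1.65, standard error 0.25, edgeR adjusted p = 1.3e-04). LRIG3, a member of the LRIG membrane proteins that includes the EGFR inhibitor LRIG1, rose from 0.766 ± 0.330 CPM to 2.62 ± 0.0926 CPM (log2 fold change 1.71, standard error 0.35, edgeR adjusted p = 0.00128). LRIG1 itself was not called (log2 fold change -0.03, standard error 0.17, edgeR adjusted p = 0.884). SPRY1 and LRIG3 passed the filter on low counts through the 1CT-A libraries alone, so for both a difference was a condition of being tested.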
